A study of Rattus norvegicus with 24 samples.

Results

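The 10 libraries made from punches of the ventral tegmental area (VTA) were ordered by their level of Tph2, the transcript of the enzyme that limits serotonin synthesis in the brain, and every other transcript was then set against that order. They are 10 of the 24 libraries of the series. The rest are 14 libraries of the nucleus accumbens (NAC), used here only for reference levels. The level is CPM, the deposited estimated count of a gene divided by the sum of its library and multiplied by 1e6. Spearman's rho was computed between each of the 16319 genes with a mean of at least 1 CPM and log2(Tph2 CPM + 1), over all 10 libraries and within each group of 5. The order was chosen by measured Tph2 CPM, and the travelling transcripts named below were chosen by their rho with it, so each rho is a description with no test.

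The rats were described as male, were at least 60 days old, and had fathers that self-administered either saline (SAL-sired) or morphine (MOR-sired) over 60 days. VTA gave 5 SAL-sired and 5 MOR-sired libraries of bilateral punches, and no strain, genetic change or treatment of the offspring themselves is named in the labels. Neither the animal nor the litter behind a library is named, so a p-value here speaks only of the variation among libraries. Libraries are called here by group and replicate number, for example SAL-sired 4.

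Serotonin neurons lie in the raphe nuclei along the midline of the brainstem. They make serotonin with tryptophan hydroxylase 2 (Tph2), take it back up through the serotonin transporter (Slc6a4) and keep their identity through the ETS factor Fev, which acts together with Gata2, Gata3, Lmx1b and Nkx2-2. Dopamine neurons share some of this equipment, including the decarboxylase Ddc, the vesicular transporter Slc18a2 and the cofactor enzyme Gch1, while Tph2, Slc6a4 and Fev separate the serotonin cells from them.

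Sequences before the start sites of Tph2 and Fev, which define the order, and of Otp and Gal, which ran along it, are shown because these are the genes that the results below turn on. They are the 250 bases before the start, 5′ to 3′ on the strand of the gene, from RefSeq (assembly GRCr8). Of 5 genes sought (the 3 markers and the steepest transcripts, Otp and Gal), 4 matched, and Slc6a4 did not. They lie at chr7:52675640-52675889 (minus strand) for Tph2, chr9:83891719-83891968 (minus strand) for Fev, chr2:27842642-27842891 (plus strand) for Otp and chr1:210084573-210084822 (minus strand) for Gal. Capitals mark the motifs found.
Tph2: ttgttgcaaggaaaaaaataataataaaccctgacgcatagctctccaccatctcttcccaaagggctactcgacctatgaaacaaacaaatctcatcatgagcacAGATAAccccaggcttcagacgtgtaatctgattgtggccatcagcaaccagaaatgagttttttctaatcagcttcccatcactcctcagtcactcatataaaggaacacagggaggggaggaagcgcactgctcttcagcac
Fev: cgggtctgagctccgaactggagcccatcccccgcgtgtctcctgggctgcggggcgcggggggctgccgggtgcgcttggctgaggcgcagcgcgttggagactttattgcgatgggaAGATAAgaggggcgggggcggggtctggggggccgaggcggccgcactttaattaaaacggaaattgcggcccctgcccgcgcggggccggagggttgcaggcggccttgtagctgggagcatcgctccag
Otp: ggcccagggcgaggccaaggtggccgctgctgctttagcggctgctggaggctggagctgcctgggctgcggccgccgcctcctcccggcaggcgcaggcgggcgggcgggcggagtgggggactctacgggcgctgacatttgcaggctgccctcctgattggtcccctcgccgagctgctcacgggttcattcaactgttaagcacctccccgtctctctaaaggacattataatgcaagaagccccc
Gal: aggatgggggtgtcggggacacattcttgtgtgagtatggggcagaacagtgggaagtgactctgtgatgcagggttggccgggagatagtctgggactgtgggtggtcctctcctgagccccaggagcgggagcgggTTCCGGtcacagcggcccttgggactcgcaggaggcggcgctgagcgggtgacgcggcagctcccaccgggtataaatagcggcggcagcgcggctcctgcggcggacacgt

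Motifs were sought on both strands for 3 kinds of factor. The motif of the zinc finger family of Gata2 and Gata3 was spelled AGATAA. The motif of the ETS family was spelled CCGGAA, and the cAMP response element was spelled TGACGTCA. No match overlapped another. The first of these was present in Tph2, 144 to 139 bases before the start, and in Fev, 131 to 126 bases before it, and 10.3% of 33469 promoters of the same length held it. The ETS motif was present as its reverse complement in Gal, 112 to 107 bases before the start, against 12.6% of promoters. The cAMP response element, held by 1.59% of promoters, was not among these letters in any of the 4. A match describes letters and not a bound site.

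Some libraries stood apart in other ways. The female-specific transcript Xist was at 78.9 to 108 CPM, with the Y-linked Ddx3y at or below 0.0720 CPM, in 4 libraries labelled male (SAL-sired 5 and MOR-sired 3, 4 and 5), and below 0.253 CPM in the other 6. Libraries numbered 25 to 28 (replicates 1 and 2 of both groups) had total counts of 23.6 to 27.3 M (1 M is 1e6 counts), and those numbered 29 to 37 had 36.7 to 43.5 M. The 10 most abundant genes took 17.8% of MOR-sired 2 and 10.4% of MOR-sired 4, where a ribosomal RNA was the largest gene, and 6.04% to 6.94% of the others.

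Tph2 differed widely between punches of the same region. It was at 0.330 CPM in SAL-sired 4, 0.573 in SAL-sired 3, 14.9 in SAL-sired 1, 45.4 in SAL-sired 5 and 56.1 in SAL-sired 2. In the MOR-sired libraries it was at 59.7 CPM in replicate 3, 76.7 in replicate 5, 139.8 in replicate 2, 141.7 in replicate 4 and 156 in replicate 1. Every SAL-sired library therefore lay below every MOR-sired one, and SAL-sired 3 was within, and SAL-sired 4 below, the 0.448 to 1.42 CPM of the 14 NAC libraries.

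Slc6a4, which clears serotonin from the synapse, followed Tph2 closely (rho 0.98 over 10 libraries and 0.90 within each group). In the same order it was at 0.170, 0.161, 11.0, 27.9 and 34.5 CPM in SAL-sired libraries and at 37.3, 44.6, 90.3, 85.7 and 97.7 CPM in MOR-sired ones, again without overlap. The NAC libraries held at most 0.174 CPM. In the 8 VTA libraries above the lowest pair, there were 0.632 ± 0.0479 Slc6a4 per Tph2 (SD, n = 8; range 0.582 to 0.741). This ratio compares levels per transcript length.

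Fev, the ETS factor of serotonin neurons, was lower in level. It was at 0.342, 0.221, 0.570, 2.05 and 3.14 CPM in SAL-sired libraries and at 2.71, 3.90, 8.94, 8.03 and 9.41 CPM in MOR-sired ones, in Tph2 order. The groups overlapped, because MOR-sired 3 lay below SAL-sired 2. Fev per Tph2 was 0.0521 ± 0.00867 over the same 8 libraries. The 3 markers thus ordered the libraries almost alike, and the lowest pair held 0.573 CPM or less of each.

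**Figure D1:**
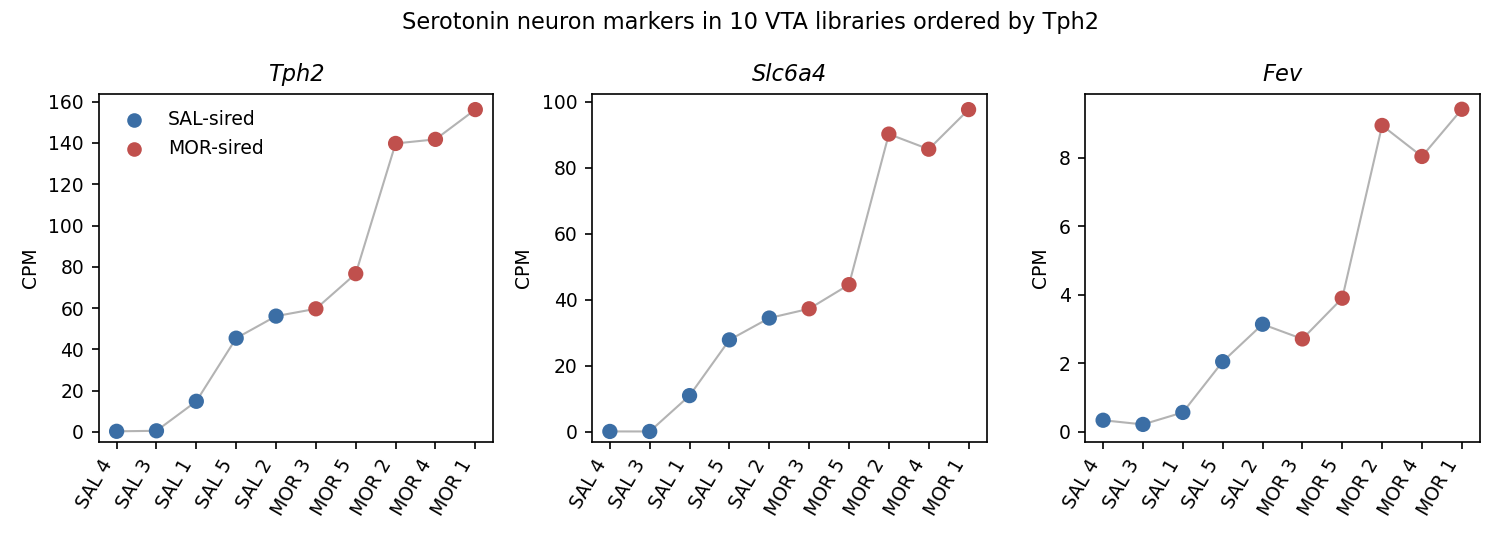
CPM (vertical axes) of Tph2, Slc6a4 and Fev in each of the 10 VTA libraries (points, joined by a line), placed from lowest to highest Tph2, with SAL-sired libraries in blue and MOR-sired in red. SAL 4 and SAL 3 lie near 0 in every panel, and the 3 highest libraries in each panel are MOR 2, MOR 4 and MOR 1.

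The markers were picked with this contrast already known, so the tests that follow are not independent support for it. The sire groups were compared on each marker with an exact permutation test of log2(CPM + 1), two-sided, with Benjamini-Hochberg adjustment over the 3 markers, for which 0.00794 is the smallest p that 5 against 5 allows. The mean of Tph2 was 23.5 ± 25.9 CPM over SAL-sired libraries and 115 ± 43.5 CPM over MOR-sired libraries (SD, n = 5 each), a difference of 3.47 on the log2(CPM + 1) scale (exact permutation p = 0.00794, adjusted 0.0119). Slc6a4 averaged 14.8 ± 15.8 and 71.1 ± 28.0 CPM, a log2 difference of 3.26 (exact permutation p = 0.00794, adjusted 0.0119). Fev averaged 1.26 ± 1.28 and 6.60 ± 3.07 CPM, a log2 difference of 1.81 (exact permutation p = 0.0159, adjusted 0.0159). All 3 were higher in MOR-sired punches. In punches of tissue, more serotonin cells and more RNA per cell cannot be told apart.

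These differences kept their direction in the subsets that follow, though with fewer libraries none passed 0.05. Leaving out the 4 libraries that held Xist left 2 MOR-sired against 4 SAL-sired libraries, for which the smallest exact permutation p is 0.0667. The log2 differences there were 4.49 for Tph2, 4.27 for Slc6a4 and 2.49 for Fev (exact permutation, adjusted p = 0.133 for each). Without SAL-sired 3 and 4, the lowest pair, they were 1.64, 1.54 and 1.37 (exact permutation, adjusted p = 0.0536 for each). Within libraries 25 to 28 they were 2.30, 2.20 and 2.00, and within libraries 29 to 37 they were 4.25, 3.97 and 1.68, with 2 against 2 and 3 against 3 libraries too few to reach 0.05. The exact permutation adjusted p was 0.333 in the first set and 0.10 in the second.

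The model fitted to all genes gave a different call. With edgeR's quasi-likelihood test and Benjamini-Hochberg adjustment over 19923 genes, 0 genes (0.0%) were called between sire groups. At an unadjusted p under 0.05, edgeR listed 1058 genes (5.31%), 547 of them (2.75% of those tested) higher in MOR-sired libraries. The log2 fold change of Tph2 in that fit was 2.40 ± 1.03 (SE; edgeR adjusted p = 0.928), that of Slc6a4 was 2.38 ± 1.04 (0.932) and that of Fev was 2.50 ± 0.73 (0.793). DESeq2 called 121 genes (0.47% of 25745), Fev among them (DESeq2 adjusted p = 0.0276) and Tph2 not (0.826), and limma-voom called 0.

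Few transcripts followed the order throughout. A transcript is said to travel with Tph2 at rho of at least 0.8 over 10 libraries and at least 0.7 within each sire group, and to run against it at -0.8 and -0.7 or less. Over 10 libraries alone, 28 genes (0.172% of 16319) reached 0.8. With the limit within groups, 14 did (0.0858%): the 3 markers with Otp, Gal, Slc6a5, Arhgap36, Cryba2, Calcr, Gabre, Tmem273, Meis1, Sgsh and Mobp. Because the sire groups do not overlap in Tph2, a high rho over 10 libraries and a difference between sire groups are not independent. The rho within groups does not use that difference. A rho of at least 0.8 was reached by 58 genes (0.355%), 10 of the 14 among them, without SAL-sired 3 and 4, and by 176 (1.08%), 13 of the 14 among them, without the 4 libraries with Xist. Points in all of these correlations share their libraries and library totals.

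Otp, a homeobox factor of hypothalamic and brainstem neurons, was the steepest after the transporter. Its SAL-sired levels in Tph2 order were 0.0820, 0.0476, 0.888, 4.73 and 1.73 CPM, and its MOR-sired levels were 5.85, 5.29, 12.9, 8.66 and 13.4 CPM. The groups did not overlap, and the 2 lowest libraries held about as little as the NAC (0 to 0.0816 CPM). Its rho was 0.95 over 10 libraries and 0.80 within each group, and 0.93 without SAL-sired 3 and 4. Otp also stood on a list of 12 genes of the interpeduncular nucleus, which lies beside the VTA. Of the 9 with at least 1 CPM, 7 had rho above 0, beside 3985 of all 16319 genes, and only Otp reached 0.8. The lowest rho of these 9 was -0.61, and their median was 0.60 within SAL-sired but -0.10 within MOR-sired libraries. The list summed to 143 to 230.2 CPM in SAL-sired and 192 to 234 CPM in MOR-sired libraries.

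Gal, which encodes the peptide galanin, was at 0.960, 2.14, 2.12, 5.32 and 4.62 CPM in SAL-sired libraries and at 3.63, 8.08, 10.9, 15.9 and 16.1 CPM in MOR-sired ones. The groups overlapped through MOR-sired 3. For Gal, rho was 0.94 over 10 libraries, 0.80 within SAL-sired and 1.00 within MOR-sired ones. Unlike Otp, Gal was present in the NAC, at 1.64 to 20.7 CPM.

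Slc6a5, the neuronal glycine transporter, was at 0.948, 0.593, 1.52, 3.07 and 2.08 CPM in SAL-sired libraries and at 3.70, 1.83, 7.85, 6.22 and 10.5 CPM in MOR-sired ones, with MOR-sired 5 inside the SAL-sired range (rho 0.89; 0.80 within each group). Arhgap36, whose product promotes the breakdown of the catalytic subunit of protein kinase A, was at 10.6, 9.48, 11.3, 19.1 and 20.6 CPM and then at 23.4, 21.9, 39.4, 32.4 and 44.9 CPM, without overlap between groups (rho 0.96; 0.90 and 0.80). Arhgap36 differed from the markers in that no library held less than 9.48 CPM. Cryba2, a crystallin family member, was at 0 in SAL-sired 4, reached 0.831 CPM in SAL-sired 5 and ran from 0.732 to 3.85 CPM in MOR-sired libraries (rho 0.90).

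The other 6 had shallow slopes. Calcr, the calcitonin receptor, ran from 3.84 to 7.36 CPM in SAL-sired and from 5.74 to 12.0 CPM in MOR-sired libraries. Gabre, the epsilon subunit of the GABA-A receptor, ran from 2.80 to 4.90 CPM and from 4.96 to 6.17 CPM without overlap. The homeobox factor Meis1 ran from 7.70 to 10.8 and from 9.23 to 11.5 CPM. The myelin gene Mobp ran from 4063 to 5028 and from 4347 to 5791 CPM. The 12 oligodendrocyte markers, Mobp among them, summed to 25502 to 32423 CPM in SAL-sired and 27240 to 37023 CPM in MOR-sired libraries. Only Mobp of these 12 reached 0.8, and 8 had rho above 0, beside 3985 of all 16319 genes. Their rho ran from -0.43 to 0.82 (median 0.25). Tmem273 and the lysosomal sulfatase Sgsh completed the 6 of shallow slope. The members closest to the limit of 0.8 were Sgsh (rho 0.81), Mobp (0.82) and Meis1 (0.83), while Ikzf1 (0.78) and Apod (0.71) lay just outside it.

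**Figure D2:**
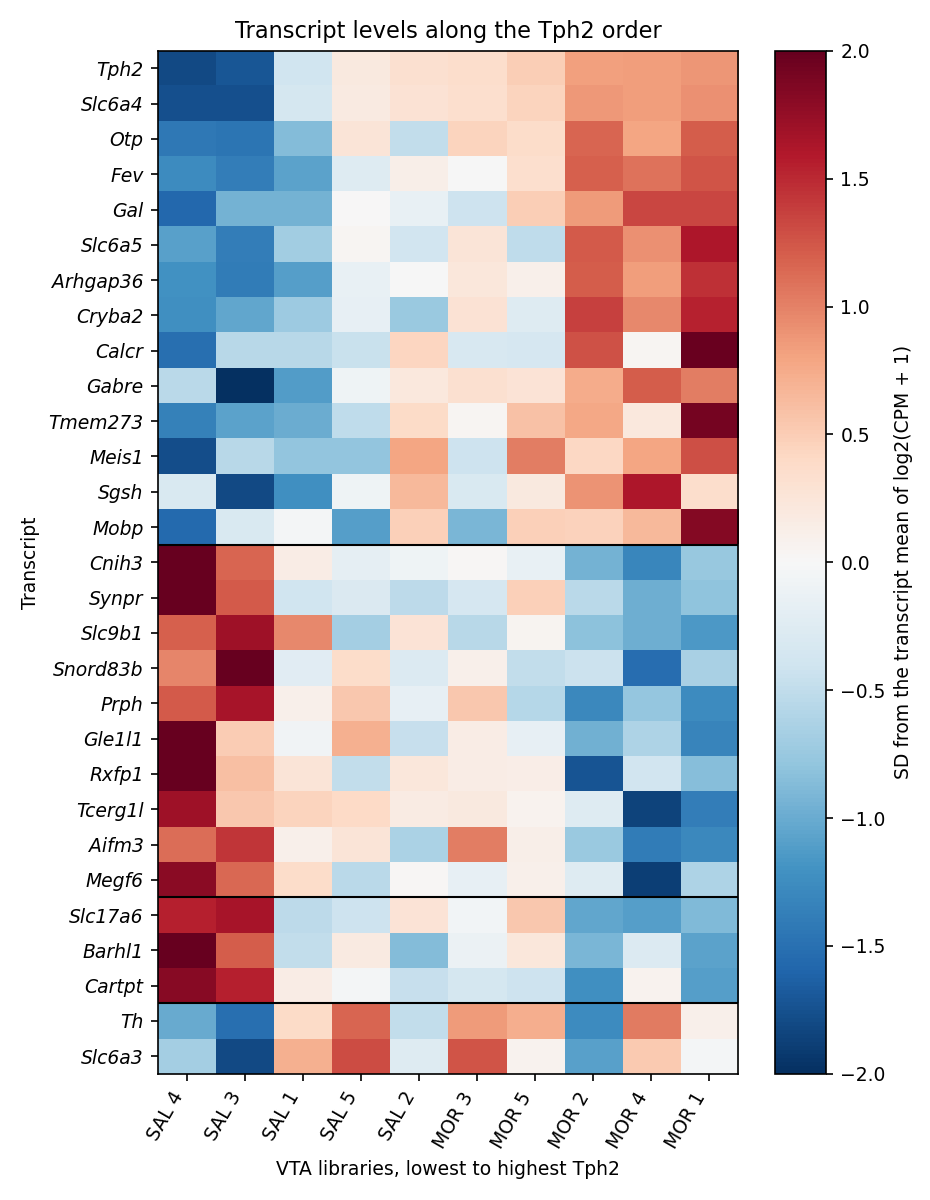
Each row is a transcript and each column a VTA library from lowest to highest Tph2, and colour gives the distance of log2(CPM + 1) from the transcript's mean in SD (red above, blue below). The top block holds the 14 transcripts that travel with Tph2, the next the 10 named ones that run against it, then 3 glutamatergic neuron and peptide genes that are high in SAL 4 and SAL 3, and last Th and Slc6a3.

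Transcripts that ran against Tph2 were more numerous, and their steepest slope of log2(CPM + 1) on that of Tph2 was -0.22, for Cnih3, beside 0.51 for Otp. There were 258 genes (1.58%) at -0.8 or less over 10 libraries and 38 (0.233%) with the limits within groups. The 10 named by slope were Cnih3, Synpr, Slc9b1, Snord83b, Prph, Gle1l1, Rxfp1, Tcerg1l, Aifm3 and Megf6. Cnih3, an auxiliary subunit of AMPA receptors, was at 9.35, 6.05, 3.62, 3.05 and 3.20 CPM in SAL-sired libraries and at 3.41, 3.11, 1.95, 1.55 and 2.19 CPM in MOR-sired ones. Synpr, a synaptic vesicle protein, was at 77.6 and 52.7 CPM in SAL-sired 4 and 3 and between 21.1 and 38.8 CPM in the other 8. Prph, the intermediate filament peripherin of motor and sensory neurons, ran from 61.6 to 99.4 CPM in SAL-sired and from 45.6 to 74.1 CPM in MOR-sired libraries. Just inside the limit were Atad3a, Armc9 and Kif19 (rho -0.81 each), and just outside Abcf1, Sgcz and Misp3 (-0.79 each).

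How the totals are scaled moved the counts of both groups, and kept most members of the first and few of the second. Over the 16319 genes the median rho was -0.26 rather than 0. TMM factors raised the log2 level by 0.24 in MOR-sired 2 and 0.08 in MOR-sired 4, the libraries whose largest gene was a ribosomal RNA, and changed it by -0.08 to -0.01 in the others. With TMM-scaled CPM, 129 genes (0.791%) reached 0.8 and 78 (0.478%) reached -0.8. Then 49 genes (0.3%) travelled with Tph2, among them 13 of the 14 (Gal had rho 0.60 within MOR-sired libraries), and 24 (0.147%) ran against it, with 3 of the 38 shared (Astn2, Rxfp1 and Gle1l1). Sire groups that did not overlap, with MOR-sired higher, numbered 89 genes (0.545%) with TMM against 18 (0.11%) in plain CPM, and with MOR-sired lower 55 (0.337%) against 186 (1.14%). Of the 10 named, Tcerg1l had rho -0.98 in plain CPM and -0.50 with TMM. Cnih3 had -0.88 and -0.90 over the 10 libraries, but with TMM it missed a limit within sire groups.

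**Figure D3:**
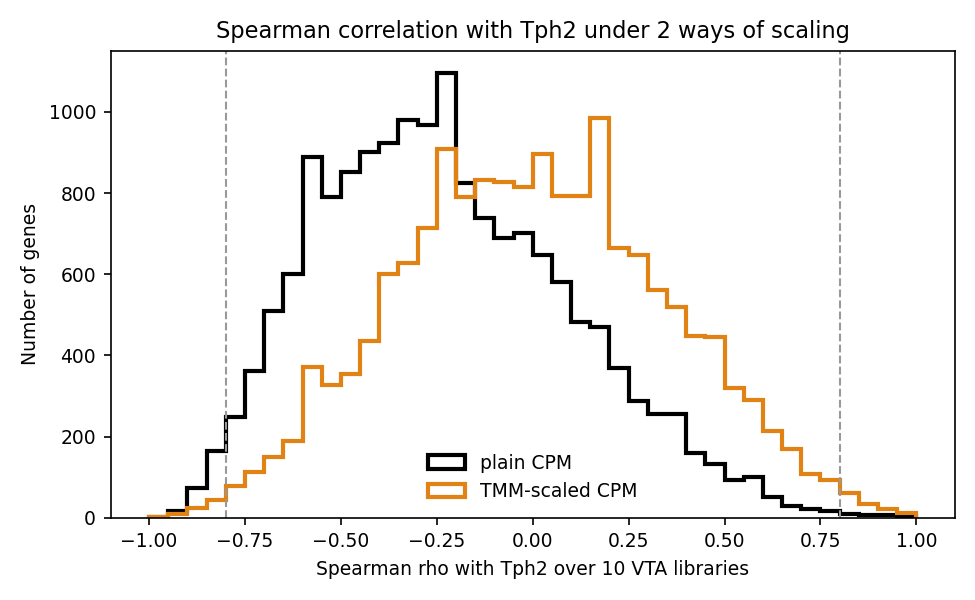
Number of genes (vertical axis) by Spearman rho with Tph2 over 10 VTA libraries (horizontal axis, bins of equal width) for plain CPM (black) and TMM-scaled CPM (orange), with dashed lines at the limits of -0.8 and 0.8. The black line is centred below 0, and fewer genes pass the right-hand limit in plain CPM (28) than with TMM (129).

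Among the other transcription factors of serotonin neurons, both GATA factors were close to the order. Gata2 was at 3.91, 4.90, 5.23, 5.63 and 5.37 CPM in SAL-sired libraries and at 6.74, 7.05, 8.57, 6.74 and 8.23 CPM in MOR-sired ones, without overlap (rho 0.93; 0.90 within SAL-sired and 0.50 within MOR-sired libraries). Gata3 was at 3.03, 4.35, 6.79, 8.13 and 6.96 CPM and then at 8.09, 9.83, 9.16, 7.81 and 9.31 CPM (rho 0.78; 0.90 and 0.00). With TMM scaling both travelled with Tph2 (rho 0.99 and 0.93). Both factors also mark midbrain GABA neurons. Of the 13 measured GABA neuron genes, 12 had rho above 0 (median 0.45), beside 3985 of all 16319 genes (median -0.26). The median rho of these 13 was 0.60 within SAL-sired but 0.10 within MOR-sired libraries. Gad1 was at 56.0 and 59.6 CPM in SAL-sired 4 and 3 and at 86.9 to 131 CPM in the other 8.

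Factors that serotonin neurons share with dopamine neurons did not follow Tph2. Lmx1b had rho -0.04, Foxa2 0.02, En1 0.41 and En2 0.26 over 10 libraries. Of the 11 factors on the list, all with at least 1 CPM, 7 had rho above 0, beside 3985 of all 16319 genes. The lowest rho was -0.79, and the median was 0.60 within SAL-sired but -0.30 within MOR-sired libraries. Only Fev and Gata2 reached 0.8, against 0.172% of all genes.

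The shared synthesis and packaging genes also stayed away from the order. Ddc had rho 0.33, Slc18a2 0.26, Gch1 0.53, Maoa 0.18 and Maob 0.32. Of the 12 measured genes of synthesis, packaging and breakdown, only Tph2 and Slc6a4 reached 0.8. Tph1, the peripheral tryptophan hydroxylase, had a mean below 1 CPM. Gchfr, the feedback regulator of Gch1, reached rho 0.93 over 10 libraries but 0.50 within SAL-sired ones.

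None of the 10 measured serotonin receptors reached 0.8 in either direction, and their median rho was -0.18, against -0.26 over all genes. Htr1a, the autoreceptor of raphe neurons, was at 7.43, 5.54, 2.91, 3.88 and 4.14 CPM in SAL-sired libraries and at 4.59, 6.08, 6.89, 5.77 and 8.63 CPM in MOR-sired ones. Its rho was 0.41 over 10 libraries and 0.93 without SAL-sired 3 and 4, of which SAL-sired 4 exceeded every library but MOR-sired 1. Htr5b lay below the mean of 1 CPM and was looked at after its values were seen. It was at 0.113 to 0.645 CPM in SAL-sired and at 0.857 to 1.97 CPM in MOR-sired libraries.

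Of the raphe subtype and peptide genes, 9 of 13 had a mean of at least 1 CPM, and Gal and Calcr were the members that travelled with Tph2. Tac1, which encodes substance P, was at 68.5 and 60.5 CPM in SAL-sired 4 and 3 and at 17.9 to 50.9 CPM in the others (rho -0.68). Nos1, the neuronal nitric oxide synthase, was likewise at 23.1 and 17.9 CPM there and at 7.36 to 12.5 CPM elsewhere (rho -0.35). The vesicular glutamate transporter Slc17a8 and Met, Trh and Crhr2 had means below 1 CPM.

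Dopamine neuron genes were present in every punch and did not follow Tph2 over the 10 libraries. Th, which limits dopamine synthesis, was at 1504, 1293, 2282, 2881 and 1753 CPM in SAL-sired libraries and at 2632, 2536, 1398, 2784 and 2098 CPM in MOR-sired ones, with wide overlap (rho 0.30; 0.60 within SAL-sired and -0.20 within MOR-sired libraries). In the NAC it was at most 1.87 CPM. None of the 20 dopamine neuron genes reached 0.8 in either direction (median rho 0.04, beside -0.26 over all genes). Of these 20, 12 had rho above 0, beside 3985 of all 16319 genes. Their median rho had opposite signs within the groups, 0.60 in SAL-sired and -0.50 in MOR-sired libraries. Their sum ran from 5173 to 10934 CPM in SAL-sired and from 5496 to 10009 CPM in MOR-sired libraries. Tph2 per 100 Th ran from 0.0220 in SAL-sired 4 to 10.0 in MOR-sired 2.

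The 2 libraries that lacked serotonin markers were high in some genes of other neurons. Slc17a6, the vesicular glutamate transporter of subcortical neurons, was at 122.7 and 129.8 CPM in SAL-sired 4 and 3 and at 20.6 to 62.2 CPM in the other 8. Cartpt, the precursor of CART peptides, was at 47.2 and 38.5 CPM against 3.87 to 12.7 CPM. Barhl1, a homeobox factor of subcortical neurons, was at 10.4 and 5.21 CPM against 0.305 to 2.17 CPM (rho -0.68; -0.90 within SAL-sired and -0.80 within MOR-sired libraries, with the same values within groups after TMM scaling).

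As a whole list, the 9 subcortical glutamatergic genes summed to 277 to 922 CPM in SAL-sired and 299.5 to 447 CPM in MOR-sired libraries. Of the 6 with at least 1 CPM, 1 had rho above 0, beside 3985 of all 16319 genes. Their median rho was -0.33, beside -0.26 over all genes, so as a list they lay close to the background. Cartpt stood on a list of 4 Edinger-Westphal peptide neuron genes, and 2 of the 3 with at least 1 CPM had rho above 0. That list summed to 697 to 1396 CPM in SAL-sired and 698 to 1230 CPM in MOR-sired libraries, so Cartpt does not stand for it. Without SAL-sired 3 and 4, rho was -0.38 for Barhl1, -0.52 for Cartpt and -0.48 for Slc17a6. Markers of other brainstem cells were low: all 6 noradrenergic genes, including Dbh and Slc6a2, had means under 1 CPM and reached 1.04 CPM at most, and all 14 hindbrain Hox genes stayed at or below 0.325 CPM. The part of these other cell types in the Tph2 order was not tested.

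**Figure D4:**
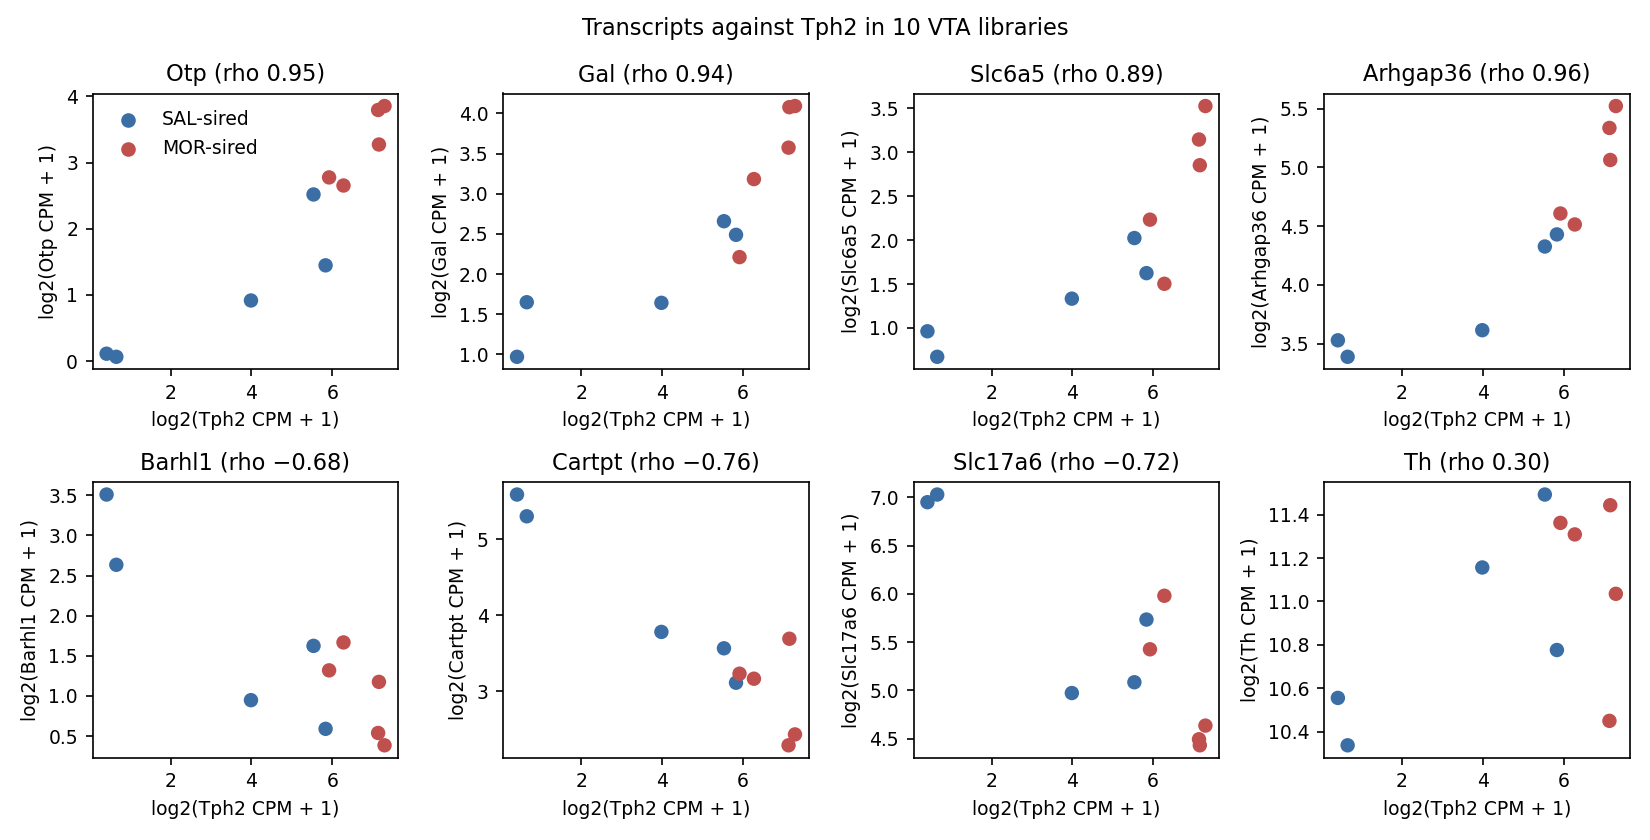
log2(CPM + 1) of 8 transcripts (vertical axes) against log2(Tph2 CPM + 1) (horizontal axes) in 10 VTA libraries, SAL-sired in blue and MOR-sired in red. Otp, Gal, Slc6a5 and Arhgap36 climb with Tph2, Barhl1, Cartpt and Slc17a6 are highest in the 2 libraries at the left, and Th (rho 0.30) shows no order.

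The sire contrast of the 14 travelling transcripts was then described. All 14 had higher fitted levels in MOR-sired libraries, with log2 fold changes from 0.25 to 3.00 (median 1.62). In plain CPM 5 (Tph2, Slc6a4, Otp, Arhgap36 and Gabre) did not overlap between groups, a pattern seen with MOR-sired higher in 0.11% of all genes. With TMM-scaled CPM that pattern was seen in 0.545% of all genes, and Gabre overlapped (SAL-sired up to 4.72 CPM, MOR-sired from 4.71 CPM). None of the 14 was called by edgeR's quasi-likelihood test (adjusted p 0.793 to 0.948), although 13 had an unadjusted p under 0.05, beside 5.31% of all genes tested. DESeq2 called 5 (Fev, Gal, Slc6a5, Arhgap36 and Cryba2), beside 0.47% of all genes. The largest log2 fold changes were 3.00 ± 0.80 for Cryba2 and 2.72 ± 0.93 for Otp (SE). These counts follow in part from the choice, since the order and the groups coincide.

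A choice made within sire groups alone does not use that coincidence, though it holds all 14 transcripts already described. There were 199 genes (1.22%) with rho of at least 0.7 in both groups, and 193 of them were tested. Of these, 120 were higher and 73 lower in MOR-sired libraries, beside 7691 higher of the 16140 tested over all genes. Their median log2 fold change was 0.02 against -0.01 over all genes. At an unadjusted p under 0.05, edgeR listed 17 of the 193, against 5.31% of all genes tested, and 13 of these 17 were among the 14. Outside the 14, 106 of 179 were higher and 73 lower in MOR-sired libraries, and 4 had an unadjusted p under 0.05 in the edgeR test. The converse choice, rho of -0.7 or less in both groups, held 361 genes (2.21%), of which 356 were tested and 12 had an unadjusted p under 0.05.

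The sire fit was also made with log2(Tph2 CPM + 1) as a covariate. The travelling transcripts were chosen by their rho with this same value, so that their sire difference moves towards 0 or past it follows from the choice, and the values are a description only. Slc6a4 went from 2.38 to -0.48 ± 0.29, Otp from 2.72 to 0.33 ± 0.49, Fev from 2.50 to 0.75 ± 0.47, and Gal from 1.95 to 0.75 ± 0.53 (log2 fold change, SE). The edgeR quasi-likelihood fit with this covariate called 0 of 19922 genes and listed 1150 (5.77%) at an unadjusted p under 0.05. Its 5 smallest p belonged to Mir1188, Mir341, Mir344-1, Kcnmb4 and Arpp21. Arpp21, a cAMP-regulated phosphoprotein of striatal and cortical neurons, had a log2 fold change of -1.37 ± 0.29 without the covariate and -1.84 ± 0.35 with it (edgeR adjusted p = 0.741). Its levels ran from 21.2 to 63.3 CPM in SAL-sired and from 9.37 to 17.3 CPM in MOR-sired libraries. The 7 cortical glutamatergic markers summed to 5.71 to 139.6 CPM in SAL-sired and 6.37 to 19.8 CPM in MOR-sired libraries. The MOR-sired sums thus lay inside the SAL-sired range. None of the 4 with at least 1 CPM had a higher fitted level in MOR-sired libraries (median log2 fold change -1.92). In the edgeR test 2 of these 4 had an unadjusted p under 0.05. SAL-sired 2 held the most, with Slc17a7 at 84.5 and Tbr1 at 17.1 CPM, and Fezf2 was at 0 in SAL-sired 4, SAL-sired 5 and MOR-sired 3. The 6 striatal markers summed to 94.1 to 113 CPM and 74.8 to 110.5 CPM. The part of these cells in the Arpp21 difference was not tested. Since sire group and Tph2 order coincide, the covariate and the group share most of their information, and their effects cannot be told apart in these 10 libraries.

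**Figure D5:**
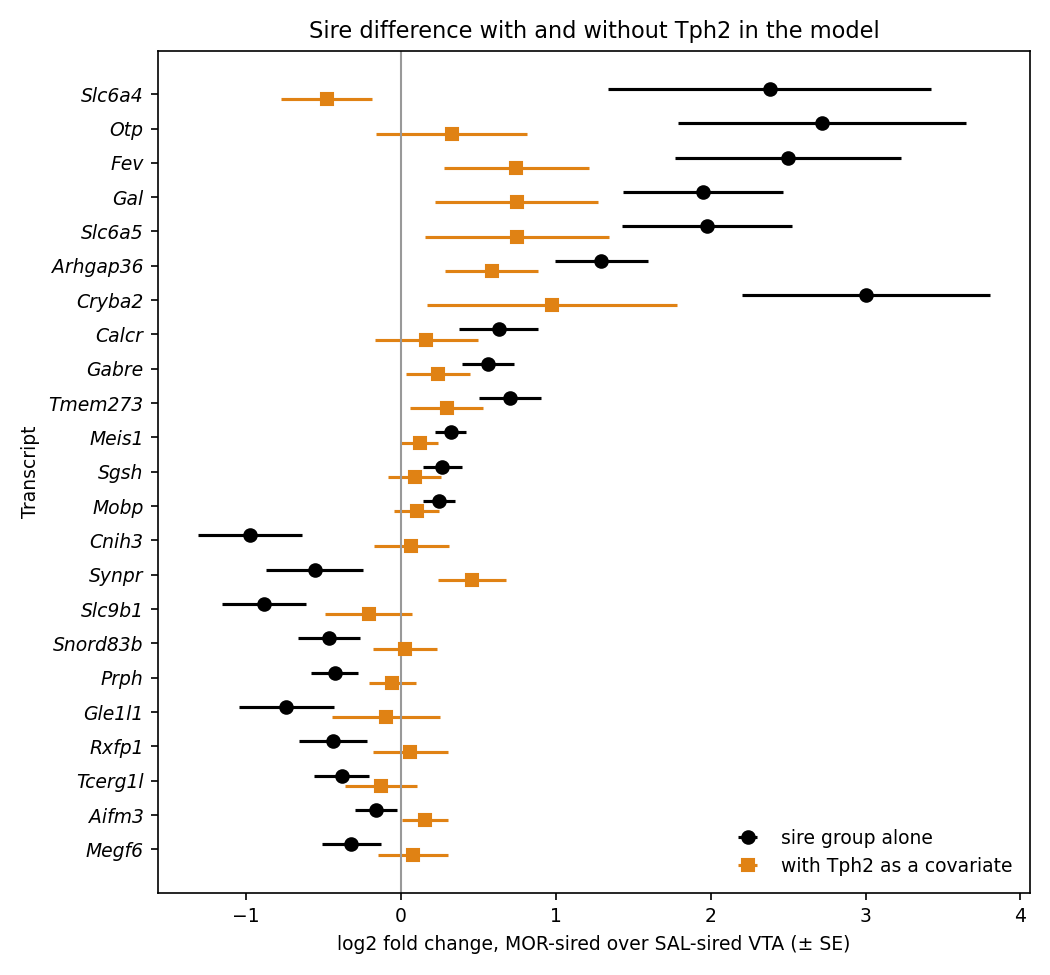
log2 fold change of MOR-sired over SAL-sired VTA libraries (horizontal axis, bars are SE) for 13 transcripts that travel with Tph2 and 10 that run against it, fitted with sire group alone (black circles) and with log2(Tph2 CPM + 1) added (orange squares). Tph2 itself is left out because it is the covariate, the transcripts were chosen by their rho with it, and Slc6a4 moves from 2.38 to -0.48.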

How the data were processed

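RNA sequencing of rat VTA punches gave 10 libraries (5 SAL-sired, 5 MOR-sired) with total counts of 23.6 to 43.5 M (1 M is 1e6). The authors deposited estimated counts, 1 value per gene and library, made from kallisto abundances (TPM) scaled to each library's total, per the deposited file name and the submitters' processing notes, which also name Trim Galore and DESeq2 without versions. They are therefore proportional to transcripts and not to reads, short RNAs are inflated, and no counting interval is given. Which genome build, annotation and strand setting the counting used is not given in the sources used here. The 37403 genes in the table include overlapping and antisense genes and small RNAs within hosts (such as Snord83b), whose counts are uncertain.

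CPM was computed as count over library sum times 1e6. Spearman's rho used genes with a mean of at least 1 CPM. Counts were rounded for edgeR's quasi-likelihood test (TMM factors, filterByExpr, intercept and sire group, Benjamini-Hochberg over all genes kept, called at 0.05, two-sided), and an SE was taken as log2 fold change divided by the root of F. Markers were tested by exact permutation on log2(CPM + 1). The scripts were tested on simulated data. Software was Python 3.11.15 with scipy 1.17.1, and DESeq2 1.42.0, edgeR 4.0.16 and limma 3.58.1 under R 4.3.3.

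Named were the serotonin genes with at least 1 CPM, up to 20 travelling and 10 opposing transcripts with a symbol by slope, fixed reference genes, up to 2 genes of largest rho from each other list, and the 5 of smallest sire p with the Tph2 covariate. Other genes were named after their values were seen, and 1 gene the rule names is not reported here. The members, limits and 27 gene lists were chosen with earlier results of these data known. Alternatives covered DESeq2, limma-voom, RLE factors, no filter, scaling, Pearson's r, Slc6a4 or Fev as the reference, other mean limits, a Tph2 covariate, a replicate block and subsets of libraries. Subsets without the 2 lowest libraries, both ranges of library numbers, library number as a covariate and the choice within sire groups alone were added after the data were seen.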

Additional observations from a re-analysis of the deposited data

Results flagged for a closer look

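Tcerg1l, a transcript that ran against Tph2, was at 8.09 CPM in SAL-sired 4, the library of lowest Tph2, and at 5.54 to 6.09 CPM in the other 4 SAL-sired libraries. The gap to the nearest of these was 0.786 of the whole range, above Dixon's limit of 0.71 for 5 samples. It was 1 of 58 groups checked, and about 1 in 20 groups passes this limit by chance.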

How the results depend on the processing

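The number of transcripts that travelled with Tph2 was 14, and the number that ran against it was 38. Leaving out 1 library gave 9 to 21 with, and 6 to 12 of the 14 were among them. It gave 32 to 212 against, and 14 to 38 of the 38 were among those. The lowest count with, 9, and the highest against, 212, came without MOR-sired 1, and the count against also rose past 1.5 times without SAL-sired 1 (114), SAL-sired 5 (80), SAL-sired 2 (75), MOR-sired 2 (69) or MOR-sired 4 (65). Pearson's r gave 10 with and 85 against. With Slc6a4 as the reference the counts were 11 and 62, and with Fev 13 and 92. Each of these settings kept 8 of the 14 and 12 of the 38, so the members changed as well as the counts. TMM scaling gave 49 with and 24 against, and a mean of at least 5 CPM gave 9 and 25. With no limit within sire groups the counts were 28 and 258 over 10 libraries, 176 and 1458 without the 4 libraries with Xist, and 58 and 305 without the 2 lowest. Within sire groups alone they were 199 and 361. The sire test called 121 genes with DESeq2 and 0 with edgeR, limma-voom and each of the other fits. The replicate numbers did not pair the libraries (correlations of deviations from -0.13 to 0.13 for the same number), and with a replicate block edgeR called 0 genes, with 859 at an unadjusted p under 0.05. For Tph2, Slc6a4 and Fev, the log2 differences of 3.47, 3.26 and 1.81 with a replicate block had an exact adjusted p of 0.0625, the smallest that 5 pairs allow. They also missed 0.05 without the 2 lowest (1.64, 1.54 and 1.37). Too few libraries were left to reach 0.05 without those with Xist (4.49, 4.27 and 2.49). The same held within libraries 25 to 28 (2.30, 2.20 and 2.00) and within 29 to 37 (4.25, 3.97 and 1.68). Among 24 named transcripts under 455 alternatives, 442 values kept direction and side of the threshold, 5 were called by DESeq2 only, and 8 changed sign. With Tph2, the value they were chosen by, as a covariate these were Slc6a4 (-0.48), Cnih3 (0.066), Synpr (0.46), Snord83b (0.027), Rxfp1 (0.061), Aifm3 (0.15) and Megf6 (0.079), and without the 2 lowest libraries Synpr (0.081), in log2 fold change. Beyond fewer libraries or genes, the cause of these changes was not tested. With 5 libraries a group, a rho takes few values, so limits of 0.7 and 0.8 pass or fail by single swaps in rank, and levels under 1 CPM were not ranked.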

Other observations

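With TMM-scaled CPM, the transcripts that ran against Tph2 most steeply were Adcyap1, Adamts2, Lamb1 and Igfbp3. Adcyap1 encodes the peptide PACAP, Adamts2 and Lamb1 are extracellular matrix genes, and Igfbp3 encodes an insulin-like growth factor binding protein. Adcyap1 had rho -0.83 over 10 libraries and -0.90 within each group, and Lamb1 had -0.92 and -0.90. With the same scaling, Dao, the D-amino acid oxidase, had rho 0.99, and the imprinted Peg10 had 0.90. These genes were named after their values were seen and carry no test.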
